A study of Homo sapiens with 4 samples.

Results

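The telomerase and telomere genes described here are 10 genes chosen by name: TERT, WRAP53, the 6 shelterin genes TERF1, TERF2, TERF2IP, POT1, TINF2 and ACD, the helicase gene RTEL1, and ATRX. All 10 are among the 26364 genes listed in each sample. RNA-seq was done on BE(2)C cells, a human neuroblastoma line in which MYCN is amplified. Cells of the Ctrl group received a non-targeting siRNA, and cells of the MYCN KD group received an siRNA against MYCN, with 2 samples in each group. Every sample was transfected with Lipofectamine, at 80 nM siRNA by the sample labels and at a lower final concentration by the study's methods, and RNA was taken the next day. The comparison therefore rests on 1 cell line, with a single siRNA sequence against MYCN, and asks how the RNA of telomere genes differed shortly after MYCN was lowered.

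Telomeres are the repeat ends of chromosomes, which shorten as cells divide unless they are extended. Telomerase extends them with a reverse transcriptase, TERT, that copies the RNA template TERC, and TERT is the subunit that most differentiated cells lack. Shelterin is the protein complex that coats the repeats and keeps the end from being read as a DNA break. Neuroblastomas with amplified MYCN commonly maintain their telomeres through telomerase, and TERT is a long-known target of the MYC family, which binds the E-box CACGTG. Other aggressive neuroblastomas rearrange the TERT locus, or lose ATRX and lengthen telomeres by recombination, which is called alternative lengthening.

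Expression is given as RPKM, reads scaled to the length of the gene and to the reads of the sample, so levels can be compared between genes. The values were normalized by the authors, and the reads behind them were recovered from their steps, with 29055819 to 34142988 reads per sample. MYCN itself was 1068 and 1073 RPKM in the controls against 720.2 and 718.0 RPKM after the knockdown, which is a log2 fold change of -0.57 (limma adjusted p = 0.00361). Across genes, the deviations of same-numbered samples from their group means ran opposite ways in the groups, with a correlation of -0.98. The 8 adrenergic neuroblastoma markers lay between 23.8 and 2273 RPKM, and their sum was 2808 to 3075 RPKM in Ctrl and 3994 to 4372 RPKM in MYCN KD. Of 11 markers of leukocytes, epithelium, endothelium and fibroblasts, 3 reached 1 RPKM in any sample (KRT19, DCN and COL1A1). The summed level of the 11 other markers was 20.5 to 20.8 RPKM in Ctrl and 37.5 to 37.9 RPKM in MYCN KD, and the part of either sum in the results was not tested.

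The RNA of TERT was low in the control cells and lower still after the knockdown. Its level was 0.168 RPKM in Ctrl replicate 1 and 0.164 RPKM in Ctrl replicate 2, and 0.0257 RPKM and 0.0242 RPKM in MYCN KD replicates 1 and 2. Both knockdown values lay far below both control values. TERT lies on chromosome 5 from 1253262 to 1295183 on the minus strand of GRCh37 with 16 exons in the canonical transcript. The mean level exceeded that of only 24.2% of the genes above 0 in any sample.

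The recovered reads show how little RNA this is. TERT had 23 and 21 reads in the Ctrl samples and 3 reads in each MYCN KD sample. Their exact 95% Poisson intervals ran from 14.6 to 34.5 and from 13.0 to 32.1 reads in Ctrl and from 0.619 to 8.77 reads in each MYCN KD sample, so the intervals of the groups did not overlap. Over both samples of a group, 44 reads stood against 6. Relative to the recovered total reads, the ratio of MYCN KD to Ctrl was 0.150, with an exact 95% counting interval from 0.0523 to 0.354. These intervals cover counting error only, on reads that had been adjusted before deposit.

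TERT was below the mean of 1 RPKM that the main test required, and it was tested in 2 fits with lower limits. With limma voom on the recovered reads of genes with at least 10 reads, chosen after seeing the data, the log2 difference was -2.54 (SE 0.141, limma adjusted p = 0.00518). Of the 15923 genes in that fit, 17.9% were lower past the threshold of 0.05. In limma on log2(RPKM + 1) without a filter it was -0.19 (limma adjusted p = 0.00724), where 13.0% of 19908 genes were lower past the threshold. The added 1 RPKM is larger than every TERT value, so this value understates the change. The replicates of each group differed by less than their counting intervals span, and the interval from the reads, between 2.83-fold and 19.1-fold higher in Ctrl, is the wider statement of the error of TERT. With 2 samples against 2, an exact permutation test cannot give a two-sided p below 0.3333, which TERT reached.

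**Figure D1:**
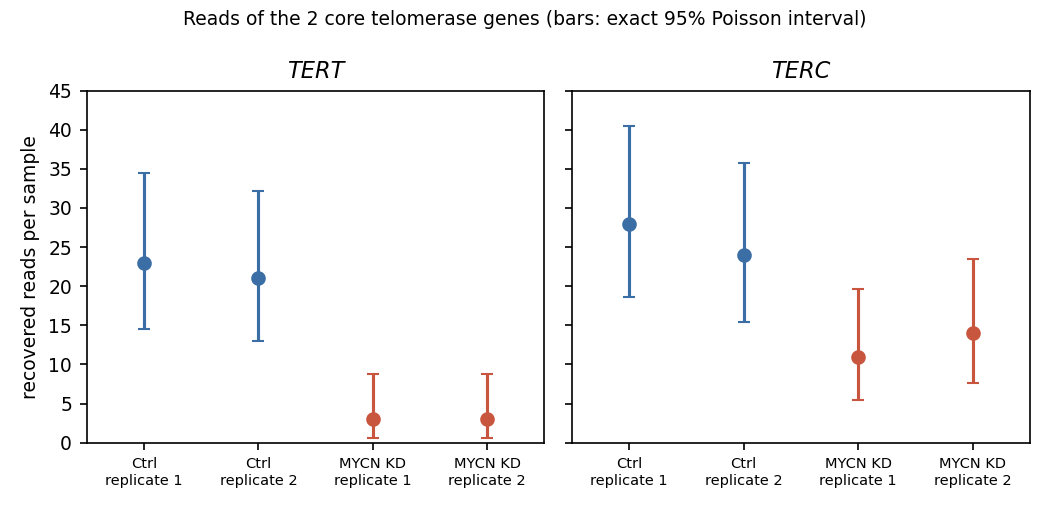
Recovered reads (vertical axis, reads per sample) of TERT and of TERC, the telomerase RNA, in each sample, with exact 95% Poisson intervals as bars. TERT had 23 and 21 reads in Ctrl and 3 in each MYCN KD sample, and TERC had 28 and 24 reads in Ctrl and 11 and 14 in MYCN KD.

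The promoter of TERT is shown because it holds the E-box that MYC family proteins bind, beside that of TINF2, which changed in the other direction. Both are the 250 bases before the start of transcription in RefSeq, build GRCh38.p14, at chr5:1295069-1295318 and chr14:24242675-24242924, each read 5′ to 3′ on the minus strand. Capitals mark CACGTG and the GC box CCGCCC or GGGCGG, searched on both strands.
TERT: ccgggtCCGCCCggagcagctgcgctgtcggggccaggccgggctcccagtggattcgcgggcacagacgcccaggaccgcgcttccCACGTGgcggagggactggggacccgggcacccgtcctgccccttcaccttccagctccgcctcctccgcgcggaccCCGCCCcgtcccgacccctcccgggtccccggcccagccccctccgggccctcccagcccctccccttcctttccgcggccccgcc
TINF2: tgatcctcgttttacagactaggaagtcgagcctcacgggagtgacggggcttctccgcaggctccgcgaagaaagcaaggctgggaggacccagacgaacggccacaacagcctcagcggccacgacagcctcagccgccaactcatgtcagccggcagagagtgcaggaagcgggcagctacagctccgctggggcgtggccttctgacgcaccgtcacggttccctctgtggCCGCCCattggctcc

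The E-box of TERT lies from 163 to 158 bases before the start. Of the 10 genes, 7 matched the promoter table, some with several starts, and TERT was the 1 gene of these 7 with a CACGTG in the window. That motif is in 6.34% of the 35116 promoters of the table. Of the 11 starts of these genes, 8 had a GC box, a motif found in 42.6% of the promoters. The search says which letters the windows hold, and no binding was measured in these samples.

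WRAP53 encodes TCAB1, the protein that carries telomerase to Cajal bodies and on to the telomere. Its level was 17.2 and 16.0 RPKM in the controls against 12.5 and 13.5 RPKM after the knockdown, and both knockdown values were below both control values. The fall was -0.33 on the log2 scale (SE 0.0629, limma adjusted p = 0.0256). Without Ctrl replicate 1 the adjusted p was 0.0909 and without MYCN KD replicate 1 it was 0.0973, so the call rested on both. The gene lies on chromosome 17 from 7589389 to 7606820 on the plus strand.

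The shelterin genes did not move together. TINF2 rose, TERF2 and TERF2IP fell, and TERF1, POT1 and ACD did not pass the threshold. Of the 8 genes that the main limma fit tested, 3 were lower (TERF2, TERF2IP and WRAP53) and 1 was higher (TINF2). Among all 11411 genes tested, 22.8% were lower and 25.3% were higher. The median log2 fold change of the 8 genes was -0.21, against 0.03 for all genes tested, and TERT and RTEL1 are not in this median. In a fit that paired the samples by replicate number, 0 of the 8 genes were lower and 1 was higher. That fit called 1851 of all 11411 tested genes lower and 2077 higher.

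TINF2 encodes TIN2, the hub that joins the double-strand binders of shelterin to the part that holds the single-stranded overhang. Its level was 20.5 and 19.7 RPKM in the controls against 33.0 and 34.3 RPKM after the knockdown. The groups stood far apart relative to the spread within them, 20.1 ± 0.561 RPKM (SD, n = 2) against 33.7 ± 0.906 RPKM (SD, n = 2). The log2 difference was 0.71 (SE 0.0439, limma adjusted p = 0.00422), and it stayed past the threshold in all 13 other fits, from 0.69 to 0.77. The gene lies on chromosome 14 from 24707492 to 24711869 on the minus strand and shares 21.9% of its exon bases with GMPR2 on the other strand. GMPR2, named for this overlap like KARS below, was 20.9 and 21.1 RPKM in the controls against 21.2 and 20.9 RPKM after the knockdown (log2 fold change 0.00, limma adjusted p = 0.915). Whether the counting used strand is not given in the sources used here, and without strand the reads of such genes cannot be told apart where they overlap.

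TERF1 and TERF2 encode TRF1 and TRF2, which bind the double-stranded repeats. TRF2 forms the protective loop at the end, and TRF1 helps forks pass through the repeats. TERF2 was 27.4 and 28.3 RPKM in the controls against 22.9 and 22.2 RPKM after the knockdown, with no overlap between groups. Its log2 difference was -0.29 (SE 0.0409, limma adjusted p = 0.0135). Without Ctrl replicate 2 or MYCN KD replicate 2 the adjusted p was 0.0779 and 0.0906. TERF1 was 6.34 and 7.07 RPKM in the controls against 5.69 and 5.12 RPKM after the knockdown. Its groups did not overlap either, but the difference of -0.27 did not pass (95% interval from -0.50 to -0.03, limma adjusted p = 0.0673). With quantile normalization TERF1 passed, at -0.32 and an adjusted p of 0.0142.

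TERF2IP encodes RAP1, the partner of TRF2, and had the highest RPKM of the 10 genes. It was 88.1 and 90.8 RPKM in the controls against 73.7 and 71.7 RPKM after the knockdown. Both knockdown values were lower, with a log2 fold change of -0.30 (SE 0.0372, limma adjusted p = 0.0112). Without MYCN KD replicate 2 its adjusted p was 0.0525. KARS, which shares 4.0% of the exon bases of TERF2IP on the opposite strand, was also lower, with a log2 fold change of -0.45 (limma adjusted p = 0.00956).

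POT1 binds the single-stranded overhang, and ACD encodes TPP1, which brings POT1 into shelterin and recruits telomerase. POT1 was 3.26 and 4.04 RPKM in the controls against 5.25 and 4.27 RPKM after the knockdown. The groups did not overlap, but the nearest values of the groups lay closer together than the replicates within them. Its log2 fold change of 0.31 had a 95% interval from -0.09 to 0.71 and did not pass (limma adjusted p = 0.145). It passed without Ctrl replicate 2 or without MYCN KD replicate 2, with adjusted p of 0.0116 and 0.0129. ACD was 32.2 and 27.7 RPKM in the controls against 24.8 and 28.7 RPKM after the knockdown. Its groups overlapped, and the log2 fold change of -0.16 had a 95% interval from -0.50 to 0.19 (limma adjusted p = 0.327). It did not pass in the fits that left out a sample, where the value ran from -0.05 without Ctrl replicate 1 to -0.26 without Ctrl replicate 2.

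Ratios within a sample do not change when all genes of the sample are scaled by the same factor. Whether the authors' adjustment before deposit changed them was not tested. TINF2 stood at 0.233 and 0.217 of the RPKM of TERF2IP in Ctrl and at 0.448 and 0.478 in MYCN KD. Against TERF2 it stood at 0.748 and 0.696 in Ctrl and at 1.44 and 1.54 in MYCN KD, so TINF2 went from below TERF2 to above it. The balance of these shelterin mRNAs thus differed between the groups in every sample. Protein was not measured here.

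**Figure D2:**
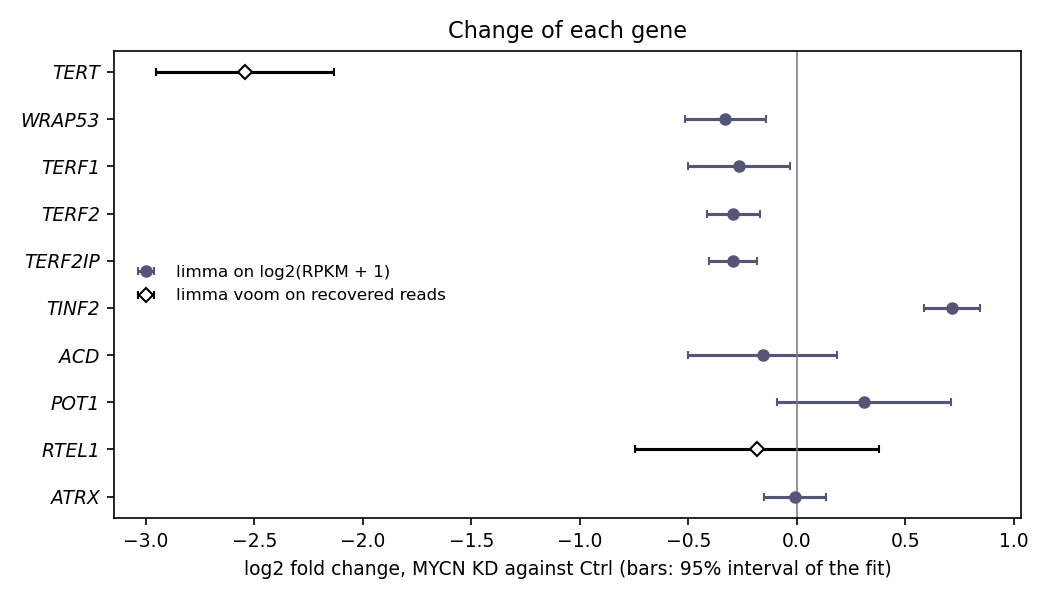
Log2 fold change (horizontal axis, MYCN KD against Ctrl) of each of the 10 genes with the 95% interval of its fit as a bar. Filled circles are from limma on log2(RPKM + 1) and open diamonds from limma voom on recovered reads, used for TERT and RTEL1. TINF2 at 0.71 and TERT at -2.54 stand apart from the other genes, which lie between -0.33 and 0.31.

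RTEL1 is the helicase that takes apart the loop at the chromosome end and other folded DNA ahead of the fork. It was listed at 0.479 and 0.379 RPKM in the controls against 0.331 and 0.423 RPKM after the knockdown, from 50 to 85 reads per sample, and the groups overlapped. In limma voom on the recovered reads its log2 fold change was -0.18 (95% interval from -0.75 to 0.38, limma adjusted p = 0.484). The read-through gene RTEL1-TNFRSF6B covers 52.9% of the annotated exon bases of RTEL1 on the same strand and was listed at 0 in all samples. Of 121 read-through genes whose name joins those of 2 listed genes, 76 (62.8%) were at 0 in every sample, against 24.5% of all listed genes. How reads in shared exons were counted is not given in the sources used here, and whether this set the low level of RTEL1 was not tested.

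ATRX encodes the chromatin remodeler that, with DAXX, places histone H3.3 at telomeres. Its level was 4.22 and 4.02 RPKM in the controls against 3.99 and 4.19 RPKM after the knockdown. The groups overlapped, and the log2 fold change of -0.01 had a narrow 95% interval, from -0.15 to 0.13 (limma adjusted p = 0.889). Its sign changed with the scaling, to 0.04 after rescaling all samples to 1 total.

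By level in Ctrl, the order of the 10 genes was TERF2IP, ACD, TERF2, TINF2, WRAP53, TERF1, ATRX, POT1, RTEL1 and TERT. How reads in exons shared with RTEL1-TNFRSF6B were counted is not given, so the place of RTEL1 is that of its listed value only. The mean ran from 89.5 ± 1.87 RPKM (SD, n = 2) for TERF2IP to 0.166 ± 0.00298 RPKM (SD, n = 2) for TERT. The Ctrl values of neighbours in this order did not overlap, except those of ACD and TERF2 and those of ATRX and POT1. For 5 genes both MYCN KD values lay below both Ctrl values (TERT, WRAP53, TERF1, TERF2 and TERF2IP). For 2 genes they lay above (TINF2 and POT1), and for 3 the groups overlapped. Among all genes above 0 in any sample, 26.3% were lower and 39.3% were higher in this way.

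**Figure D3:**
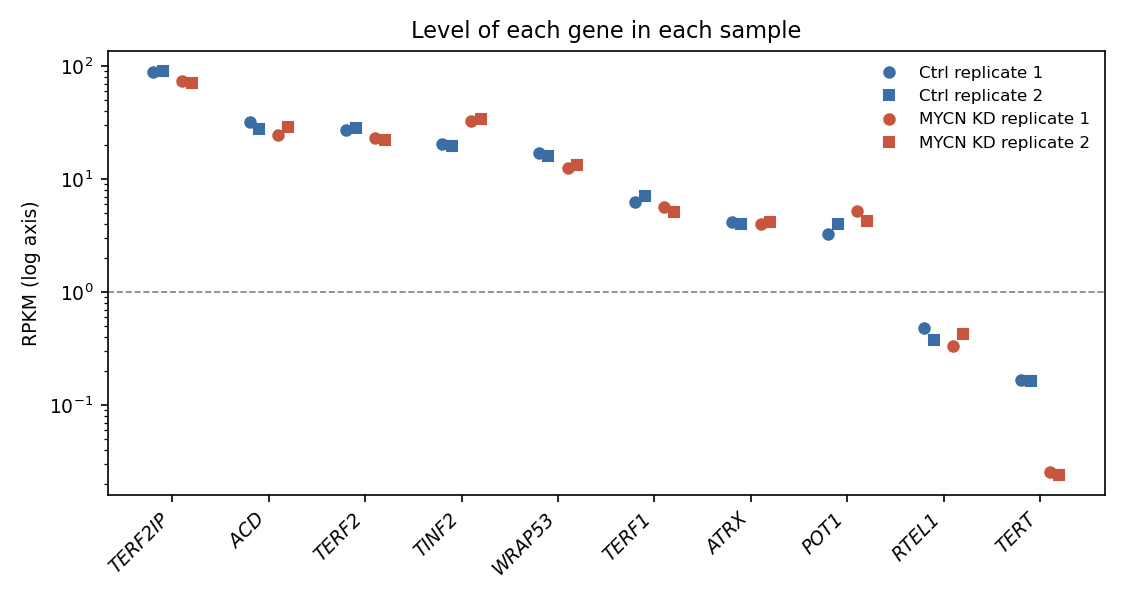
Level of the 10 genes in each sample, in RPKM on a log axis, ordered by the Ctrl mean. Blue points are Ctrl and red points MYCN KD, with circles for replicate 1 and squares for replicate 2, and the dashed line is the 1 RPKM that the mean had to reach for the main test. RTEL1 and TERT lie below the line, and TERT shows the widest gap between groups.

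Most tested genes of the telomerase particle and its assembly were lower. Of the 15 genes listed for telomerase and its assembly, 14 were tested, 10 were lower past the threshold and 0 were higher in limma, with a median log2 fold change of -0.47, beside 22.8% lower and 25.3% higher among all genes tested. NOP10, a core protein of the particle named after its values were seen, did not pass (log2 fold change -0.20, limma adjusted p = 0.133). The highest log2 fold change of the 14 was -0.20, so no gene was higher at an unadjusted p either, and limma voom on the recovered reads also called 0 higher. DKC1, the dyskerin gene, whose protein binds and stabilises TERC, fell from 44.8 and 47.3 RPKM to 20.6 and 19.6 RPKM, a log2 fold change of -1.15 (limma adjusted p = 0.00359). GAR1, which sits with dyskerin on the RNA, fell by 0.92 on the log2 scale (limma adjusted p = 0.00371). NAF1, the assembly factor that GAR1 replaces, fell by 0.85 (limma adjusted p = 0.00359). These 3 proteins also serve the H/ACA RNAs that guide pseudouridylation, so the genes are not particular to telomerase.

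TERC, named here after its values were seen, was 1.82 and 1.66 RPKM in the controls against 0.839 and 1.003 RPKM after the knockdown, from 28, 24, 11 and 14 reads. Its log2 fold change was -0.51 on the log2(RPKM + 1) scale (limma adjusted p = 0.0114), which the added 1 RPKM makes smaller. In limma voom on the recovered reads it was -0.89 (limma adjusted p = 0.0193), and without MYCN KD replicate 1 that fit gave an adjusted p of 0.0908. From the summed reads its ratio of MYCN KD to Ctrl was 0.530, with a counting interval from 0.315 to 0.869, which overlaps that of TERT. TERC has no poly(A) tail, and how its level depends on the library type was not tested. WRAP53 stood at 0.384 and 0.338 of the RPKM of DKC1 in Ctrl and at 0.608 and 0.686 in MYCN KD.

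CST is the complex that, with DNA polymerase alpha and primase, fills in the strand opposite the one telomerase extends. Of 15 tested genes for CST and telomere replication, 8 were lower and 1 was higher, with a median log2 fold change of -0.32, where the shares of all tested genes were 22.8% and 25.3%. The primase gene PRIM1 fell by 0.63, the nuclease and helicase gene DNA2 by 0.55 (limma adjusted p = 0.0437) and the flap nuclease gene FEN1 by 0.54 on the log2 scale. DNA2 did not pass without the filter or after rescaling to equal totals. OBFC1, which encodes the CST subunit STN1, was the gene that passed in the other direction, from 3.24 RPKM in both Ctrl samples to 4.05 and 4.06 RPKM in MYCN KD (log2 fold change 0.25, limma adjusted p = 0.0152). In each of the 4 fits that left out a sample OBFC1 did not pass, with adjusted p from 0.153 to 0.160. After rescaling to equal totals, 4 of these genes were lower and 2 were higher. Among all 11411 tested genes, that rescaling gave 2122 lower and 3279 higher. These genes also copy the rest of the genome.

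Of 14 genes for end processing and accessory functions, all tested, 5 were lower and 2 were higher, with a median log2 fold change of -0.15. Of all tested genes, 22.8% were lower and 25.3% higher. PINX1, whose product binds TRF1 and inhibits telomerase, fell from 25.5 and 26.5 RPKM to 13.5 and 13.1 RPKM, a log2 fold change of -0.92 (limma adjusted p = 0.00359). MRE11A, a subunit of the break sensor that also trims telomere ends, fell by 0.77 on the log2 scale (limma adjusted p = 0.00808), and PARP1 fell by 0.59 (limma adjusted p = 0.00461). The 2 that rose were the tankyrase genes, whose products release TRF1 from telomeres by ADP-ribosylation. TNKS was 6.17 and 7.02 RPKM in the controls against 10.1 and 8.92 RPKM after the knockdown (log2 fold change 0.47, limma adjusted p = 0.0286), and TNKS2 had a log2 fold change of 0.51 (limma adjusted p = 0.0319), which did not pass without the filter.

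Few genes of the ATRX pathway and of alternative lengthening passed. Of 15 tested, 2 were lower, 2 were higher and 11 did not pass, with a median log2 fold change of 0.01, both shares being below the 22.8% and 25.3% of all tested genes. NR2F2, an orphan nuclear receptor found at telomeres in cells with alternative lengthening, fell by 0.66 on the log2 scale (limma adjusted p = 0.00467). SMARCAL1, which remodels stalled forks, was 13.2 and 13.3 RPKM in the controls against 17.08 and 16.97 RPKM after the knockdown (log2 fold change 0.33, limma adjusted p = 0.00836), and TOP3A, a topoisomerase that resolves recombination intermediates, fell by 0.30 (limma adjusted p = 0.0191). SMARCAL1 had an adjusted p of 0.0502 without MYCN KD replicate 1, and TOP3A did not pass without Ctrl replicate 1 or MYCN KD replicate 1 (adjusted p up to 0.115). DAXX, the partner of ATRX, and H3F3A, a gene for H3.3, were named after their values were seen and could not be compared. DAXX was at 0.0425 RPKM or less in each sample, and H3F3A was listed at 0 in each. How reads that fit several places were counted is not given in the sources used here, and neither value is read as a level. H3F3B, another gene for H3.3 named after its values were seen, was the other higher gene, at 159.9 and 174.4 RPKM in the controls against 211.7 and 194.7 RPKM after the knockdown (log2 fold change 0.28, limma adjusted p = 0.0475). It did not pass in 5 of 13 alternatives, 2 of which left out Ctrl replicate 1 or MYCN KD replicate 1 (adjusted p up to 0.115).

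Of 16 factors known to act at the TERT promoter, all tested, 5 were lower and 1 was higher, with a median log2 fold change of -0.23, beside 22.8% and 25.3% of all tested genes. The share lower was thus near that of all genes, and the share higher was below it. The list holds MYCN, the target of the siRNA. WT1, a zinc finger factor, fell by 0.65 on the log2 scale (limma adjusted p = 0.00462). MYC was the 1 that rose, from 0.780 and 0.542 RPKM to 6.73 and 9.32 RPKM, a ratio of the means of 12.1. On the log2(RPKM + 1) scale its log2 fold change was 2.43 (limma adjusted p = 0.00497), which the added 1 RPKM makes smaller. The level of MYC stayed far below that of MYCN, which was 720.2 and 718.0 RPKM in the same samples.

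**Figure D4:**
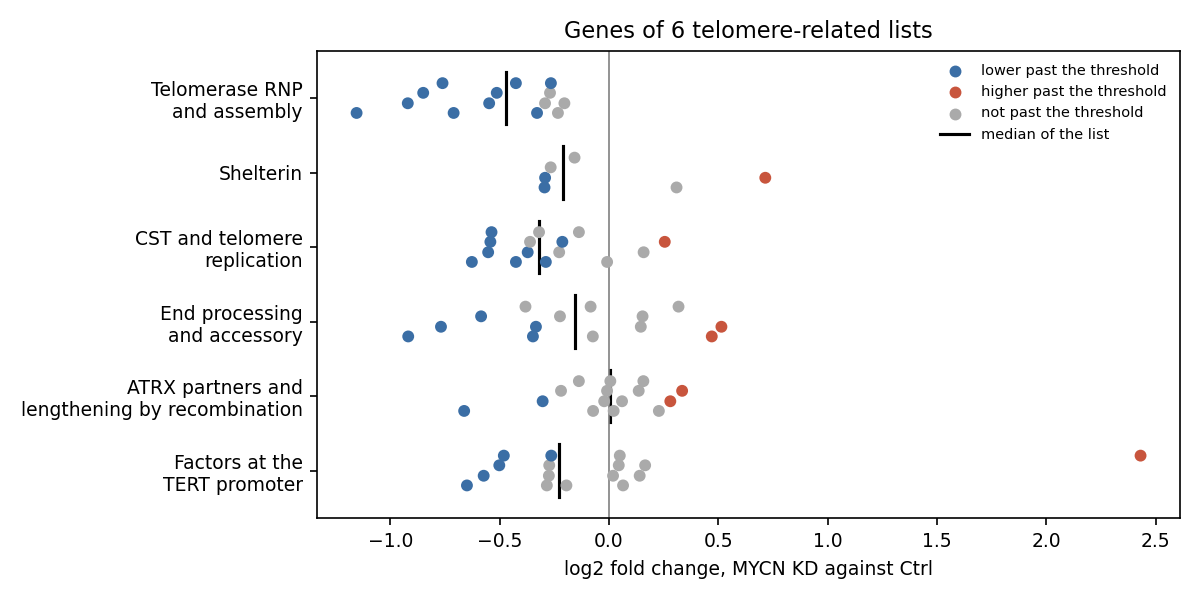
Log2 fold change (horizontal axis, MYCN KD against Ctrl) of each tested gene of 6 telomere-related lists, 1 point per gene, with the list's median as a black line. Blue points were lower and red points higher past the adjusted p of 0.05, and grey points did not pass. The telomerase list has no point above 0, and the shelterin list has 1 red point at 0.71 (TINF2). The red point at 2.43 is MYC, whose change the added 1 RPKM makes smaller.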

How the data were processed

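RNA of 4 samples was sequenced, 2 of Ctrl and 2 of MYCN KD, and poly(A) selection and strand are not given in the sources used here. The authors mapped RNA-seq reads to hg19 with HISAT2 2.1.0, counted the reads of RefSeq genes (featureCounts), used DESeq2 for the read distribution and RUVSeq against unwanted variation, and deposited the resulting values as RPKM in 1 file per sample. Since the values were adjusted with RUVSeq, the spread between replicates is that left after the adjustment.

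RPKM steps of small RNA genes of known length gave the total reads of each sample, and these gave whole reads within 0.02 of a read for 100.0% of the 19908 genes above 0. In R 4.3.3, limma 3.58.1 (lmFit, then eBayes with its trend option) compared log2(RPKM + 1) between groups in the 11411 genes whose mean reached 1 RPKM. No block was used, p-values were adjusted over all genes tested by the Benjamini-Hochberg method, and the threshold was 0.05. The main limma fit and the read recovery were tested on simulated data. The samples simulated for the fit varied independently, so its standard errors were not tested under linked deviations such as those described next. The study's methods call the replicates biological. Same-numbered samples deviated in opposite directions (correlation -0.98), so the numbers were not taken to pair them. The deviations in the 2 groups were thus not independent, although the fit without a block treats them so. Its standard errors, intervals and p-values therefore rest on less information than the fit assumes.

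The genes and lists were chosen with earlier results of these data known. Named were the 10 genes, MYCN and, in each list, up to 3 genes with the largest change past the threshold and up to 2 past it against the direction of the list. Alternatives were pseudocount, filter, scaling, eBayes without a trend, the replicate block, limma voom and leaving out each sample. Positions and exons came from GENCODE 44 lifted to GRCh37 and promoters from RefSeq. Python 3.11.15, scipy 1.17.1 and matplotlib 3.10.9 were used. Some results are not reported here.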

Additional observations from a re-analysis of the deposited data

How the results depend on the processing

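TINF2 kept its direction in all 13 alternatives run for it, from 0.69 to 0.77. For TERT only 5 were run, and it kept its direction, from -2.59 to -0.19. The last is the fit without a filter on the log2(RPKM + 1) scale. The others left a sample out of the limma voom fit, which was chosen after seeing the data. TERT was not run with the replicate block, quantile normalization or rescaling to the same total. RTEL1 did not pass in any alternative run for it, from -0.36 to -0.01. With quantile normalization TERF1 passed (-0.32). ATRX changed sign when rescaled to the same total (0.0400). The fits without 1 sample each ranged from -0.32 to -0.27 for both TERF2 and TERF2IP and from 0.19 to 0.43 for POT1. They ranged from -0.26 to -0.05 for ACD, from -0.38 to -0.28 for WRAP53 and from -0.037 to 0.0194 for ATRX. In these fits the lone sample of a group is assumed to vary like the other group. At a minimum mean of 5 RPKM the median of the members was -0.28, against -0.21, and 1868 of all genes were higher, against 2890. Fewer genes were tested at that minimum.

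In the fit with a replicate block on the sample number, 0 of the 8 genes in the fit were lower and 1 was higher. TERT and RTEL1 were not in that fit. TERF2 (-0.29), TERF2IP (-0.30) and WRAP53 (-0.33) had the same values and did not pass. The block fit called 1851 genes lower and 2077 higher. Same-numbered samples had a correlation of -0.98 between their deviations. The block was also run with the numbers crossed, which was tried after the data were seen. That fit called 5262 genes lower and 5910 higher of the 11411 tested, so nearly every gene passed. All 8 tested members passed with them, 6 lower and 2 higher, also TERF1 (-0.27), POT1 (0.31), ACD (-0.16) and ATRX (-0.0090). Crossing takes deviations of this kind out of the error, so these calls say nothing particular to the 10 genes. For the lists, the counts lower in the alternatives set beforehand ran from 8 to 13 for telomerase (10 in the main result), 0 to 3 for shelterin (2), 4 to 9 for replication (8), 4 to 6 for end processing (5), 1 to 3 for ATRX partners (2) 4 to 7 for the promoter factors (5) and 3 to 5 for the genes around TERT (4). The counts higher ran from 0 to 2 for replication (1), 1 to 3 for end processing (2), 0 to 3 for ATRX partners (2), 1 to 2 for shelterin (1), and 0 to 1 both for the promoter factors (1) and for the genes around TERT (1). Over the same alternatives, 1851 to 2993 of all tested genes were lower and 1868 to 3384 were higher, with 7859 to 19908 genes tested. The cause of each of these changes was not tested. Depth limits TERT and TERC most, with 3 to 28 reads per sample.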

Other observations

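The genes around TERT at the end of the short arm of chromosome 5 were measured beside it. Of these, the nearest on either side were SLC6A18, listed at 0 in all samples, and CLPTM1L. CLPTM1L had a log2 fold change of -0.23 (limma adjusted p = 0.0247). CLPTM1L did not pass in 5 of 13 alternatives, namely the replicate block and each fit that left out a sample. The other genes named from this region lie farther from TERT. Of 11 genes there, 7 were tested, of which 4 were lower and 1 was higher in limma, with a median log2 fold change of -0.23, beside 22.8% lower and 25.3% higher among all genes tested. LPCAT1, which encodes an enzyme that remodels lung surfactant and membrane phospholipids, was 25.2 and 24.9 RPKM in the controls against 10.6 and 10.8 RPKM after the knockdown (log2 fold change -1.15, limma adjusted p = 0.00359). MRPL36, a mitochondrial ribosomal protein gene, fell by 0.57 on the log2 scale (limma adjusted p = 0.00414), and TRIP13, a mitotic checkpoint gene, fell by 0.54 (limma adjusted p = 0.0112). SLC12A7, a potassium chloride transporter gene, was the 1 higher gene (log2 fold change 0.26, limma adjusted p = 0.0437). In each of the 4 fits that left out a sample it did not pass, with adjusted p from 0.0709 to 0.241.

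SLC6A19, an amino acid transporter gene below the limit of the main test and named after its values were seen, was 0.198 and 0.145 RPKM in the controls against 0.952 and 1.26 RPKM after the knockdown. NKD2 and SLC6A3 of the same region, also below that limit and named in the same way, lay lower after the knockdown. NKD2 was 0.156 and 0.121 RPKM in the controls against 0.0333 and 0.0312 RPKM, and SLC6A3 was at 0.0159 RPKM or less in each sample.

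TEN1, a subunit of CST named after its values were seen, was listed at 0 in all 4 samples, as was H3F3A. Cells commonly express both, so a listing at 0 is not read here as a level.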
